A study of Homo sapiens with 4 samples.

Results

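The mitochondrial ribosomal protein genes are the nuclear genes whose symbols begin with MRPL (proteins named for the large subunit of the mitochondrial ribosome) or MRPS (the small subunit) followed by a number and at most 1 letter. They were taken from probes with a single gene symbol in the platform annotation, which gave 110 probes for 76 of the 18474 genes named on the array, 48 of them MRPL and 28 MRPS. A single probe stood for 49 genes, and 27 genes had several. The choice used symbols only, but the family was picked with its values on these same arrays known, so every value below is a description.

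Total RNA of HEK293 cells, an established human embryonic kidney line, was hybridised as biotin-labelled cRNA to Illumina bead arrays. Cells were given 100 pmol of control siRNA or of siRNA against CDC73 (labelled hCdc73), the gene of parafibromin, which belongs to the PAF1 complex that travels with RNA polymerase II along genes. They were moved after 24 hours to dishes of 100 mm, called sparse, or of 35 mm, called confluent, and taken for RNA 24 hours later. Both siRNAs at both densities made 4 groups, all of 1 cell line that had been transfected, and no untransfected cells were analysed here. Each group had 1 array, so no difference has a replicate check. No p-value is printed for a single gene of the family, and members are only named as called in an additive fit below.

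The mitochondrial ribosome translates the messenger RNAs encoded by mitochondrial DNA, which specify core subunits of the respiratory chain and of ATP synthase. Its ribosomal RNAs come from mitochondrial DNA, while its proteins are made from nuclear genes in the cytosol and imported. Some of these proteins have counterparts in the bacterial ribosome and others are found only in mitochondrial ribosomes.

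Total signal lay between 22948071 (CDC73 confluent) and 28273404 (control confluent). A probe counted as detected where fewer than 1 in 100 of 452 olfactory receptor probes, which served as a negative panel, were as bright (a detection p under 0.01), and between 28.0% and 30.5% of probes passed on an array. The CDC73 probe was detected on none of the 4 arrays, with intensities of 72.3 (control sparse), 83.5 (CDC73 sparse), 98.4 (confluent, control) and 90.1 (confluent, CDC73), so the knockdown could not be checked and the siRNA groups rest on the labels. Of the markers for HEK293 cells, KRT8, KRT18, CDH2, VIM, NEFL and ENO2 were detected on all 4 arrays and NEFM on none. Of the fibroblast markers, COL1A1 was detected on 4 arrays, LUM on 3, and COL1A2 and DCN on none, and the blood markers PTPRC, CD3E and HBB and the liver markers ALB and APOA1 were detected on none.

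The family was broadly expressed. Of its 76 genes, 75 were detected on all 4 arrays (98.7%, against 49.0% of all named genes), and MRPS14 was detected on the 2 control arrays only. The brightest probe of each gene was used. Log2 values below are background-corrected, with an offset of 16 added, and quantile normalized over the 4 arrays, so that a log2 difference of 1 is 2-fold, while intensities are the deposited values on a linear scale. The deposited intensities of the 76 genes together made up 0.816% (control siRNA) and 0.753% (CDC73 siRNA) of all signal on the sparse arrays, against 0.599% and 0.657% on the confluent arrays. In bulk RNA, a smaller share of cells with a transcript and less of it per cell cannot be told apart.

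**Figure D1:**
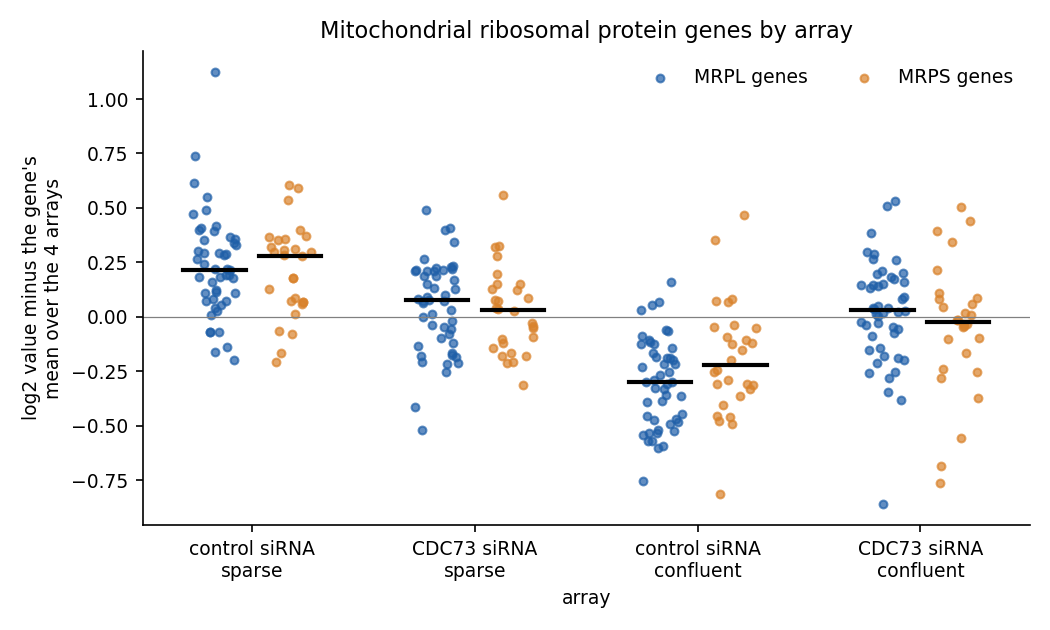
Each point is 1 gene of the family on 1 array, as its normalized log2 value minus the mean of that gene over the 4 arrays, with MRPL genes in blue, MRPS genes in orange and black bars at the medians. The medians were 0.22 (MRPL) and 0.28 (MRPS) on the control sparse array and -0.30 and -0.22 on the control confluent array. With median scaling in place of quantile normalization, the CDC73 confluent array was the lowest for most of the genes.

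In the normalized values, and relative to all genes, the largest shift of the family among the comparisons of 2 arrays lay between densities in cells with control siRNA. In the deposited intensities themselves the density median was larger in size with CDC73 siRNA (-0.37). Confluent cells had lower values than sparse cells for 70 of 76 genes and higher values for 6 (48% of all measured genes were lower and 51.9% higher), with a median log2 difference of -0.48 against 0.02 over all 10244 genes measured. A gene counts as measured in a comparison where at least 1 of its arrays detected it. The middle 50% of the family spanned -0.71 to -0.29. Of the 76 genes, 37 were lower by at least 0.5, where 12.7% of all genes were, and 0 were higher by that much. The median was -0.44 with median scaling of the arrays and -0.32 in the deposited intensities, in which the median of all measured genes was 0.22 and 0.25. Relative to all genes the family was therefore at -0.50 in the quantile normalized values, at -0.66 with median scaling and at -0.57 in the intensities.

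Past 2-fold lower in that comparison were 3 of the 76 genes, MRPL1, MRPL30 and MRPS17 (1.64% of all genes were at least 2-fold lower), and 0 members were 2-fold higher (3.9% of all genes). MRPS17, a protein of the small subunit with a bacterial counterpart, had intensities of 3236 (control sparse), 3714 (CDC73 sparse), 1680 (confluent, control) and 1928 (confluent, CDC73), and both confluent arrays were below both sparse arrays. Its log2 difference was -1.11 with control siRNA and -0.60 with CDC73 siRNA. MRPL30, a large subunit protein with a bacterial counterpart, read 397, 375.3, 265.3 and 311.1 on the same arrays in that order. Its differences were -1.11 with control siRNA and -0.03 with CDC73 siRNA, and a dimmer MRPL30 probe gave -0.31 and -0.55. The probes of MRPL30 thus differed in size, and their average with control siRNA was -0.71.

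Next below MRPS17 were MRPL20, MRPL47 and MRPL35. MRPL20, whose bacterial counterpart is needed for assembly of the large subunit, had intensities of 2887 (control sparse), 2170 (CDC73 sparse), 1643 (confluent, control) and 1288 (confluent, CDC73). The log2 difference of MRPL20 between densities was -0.997 with control siRNA and -0.41 with CDC73 siRNA, and a dimmer probe of it gave -0.65 and 0.08. MRPL47, a protein near the exit of the peptide tunnel, read 653.5, 408.9, 442.3 and 357.9. It was at -0.98 with control siRNA and 0.09 with CDC73 siRNA (-0.18 with median scaling), and its dimmer probe was at -0.92 and 0.18. MRPL35, a large subunit protein with a bacterial counterpart, was at -0.93 and -0.11, and its other probes were at -0.58 and -0.54 with control siRNA.

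The members above zero in confluent cells with control siRNA were few and their differences small. MRPL57, a protein of the large subunit with no bacterial counterpart, was at 0.22 and had intensities of 656.2 (control sparse), 566.6 (CDC73 sparse), 907.9 (confluent, control) and 822.7 (confluent, CDC73). The confluent arrays were the higher with either siRNA. A dimmer MRPL57 probe did not follow, with differences of -0.21 (control siRNA) and -0.31 (CDC73 siRNA). The others were MRPS27, an RNA-binding protein of the pentatricopeptide repeat type (0.14), MRPS25 (0.12), MRPL45, which sits at the tunnel exit and contacts the inner membrane (0.11), MRPS6 (0.09) and MRPL16 (0.02).

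With CDC73 siRNA the family did not stand lower in confluent cells in the quantile normalized values. Of 75 measured genes, 42 were lower and 33 higher (51.8% of all genes were lower), with a median of -0.03 against -0.02 over 10509 genes. By at least 0.5, 7 genes were lower and 4 higher, where 18.9% and 18.2% of all genes were, and 0 were past 2-fold (4.33% of all genes were 2-fold higher, 3.89% lower and 8.22% either). This comparison depended on the scaling. The median was -0.35 with median scaling, with all genes at -0.25, and -0.37 in the deposited intensities, with all genes at -0.23. Relative to all genes it was -0.10 and -0.14 in those settings.

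The 4 genes higher by at least 0.5 in confluent cells with CDC73 siRNA were MRPL57 (0.92), MRPS6 (0.68), MRPS33 (0.65) and MRPS25 (0.57). MRPS6, whose bacterial counterpart binds the platform of the small subunit, had intensities of 6180 (control sparse), 6083 (CDC73 sparse), 6809 (confluent, control) and 8136 (confluent, CDC73). MRPS33, a protein of the small subunit found in mitochondria and not in bacteria, read 2041, 1717, 1826 and 2064, and its dimmer probe gave a log2 difference of 1.07. MRPL33 followed at 0.50 and MRPL10 at 0.49. All 6 stayed above zero with median scaling, at 0.20 to 0.63.

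Lower by at least 0.5 at confluence with both siRNAs were 6 genes (5.2% of all genes measured in both comparisons were), and 0 were higher with both (7.69% of all genes). MRPL12, the stalk protein that recruits translation factors to the ribosome, had intensities of 3929 (control sparse), 3935 (CDC73 sparse), 2393 (confluent, control) and 1992 (confluent, CDC73). Its log2 differences were -0.84 with control siRNA and -0.66 with CDC73 siRNA. MRPS12, whose bacterial counterpart takes part in decoding, read 6089, 5531, 3862 and 2962, and its differences were -0.73 and -0.56. For MRPL12 and MRPS12 alike, both sparse arrays were above both confluent arrays in the deposited values.

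MRPL4, whose bacterial counterpart lines the peptide tunnel, was at -0.92 with control siRNA and -0.68 with CDC73 siRNA. MRPL3, a protein close to the site of peptide bond formation, was at -0.66 and -0.53, and its dimmer probe was at -0.19 and -0.63. Averaged over their probes, MRPL3 (-0.43, control siRNA), MRPL4 (-0.43, CDC73 siRNA) and MRPS12 (-0.31, CDC73 siRNA) would not reach 0.5 with both siRNAs. The averages of MRPL4 and MRPS12 each include a probe that was detected on no array. The other detected MRPL4 probe was at -0.64 with control siRNA and -0.68 with CDC73 siRNA. The other detected MRPS12 probes were at -0.42 and -0.23 with CDC73 siRNA. MRPS17, given above, and MRPL1, described with the siRNA comparisons, made up the 6. With median scaling all 6 were lower with both siRNAs, the smallest difference being -0.64 (MRPL4, control siRNA).

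**Figure D2:**
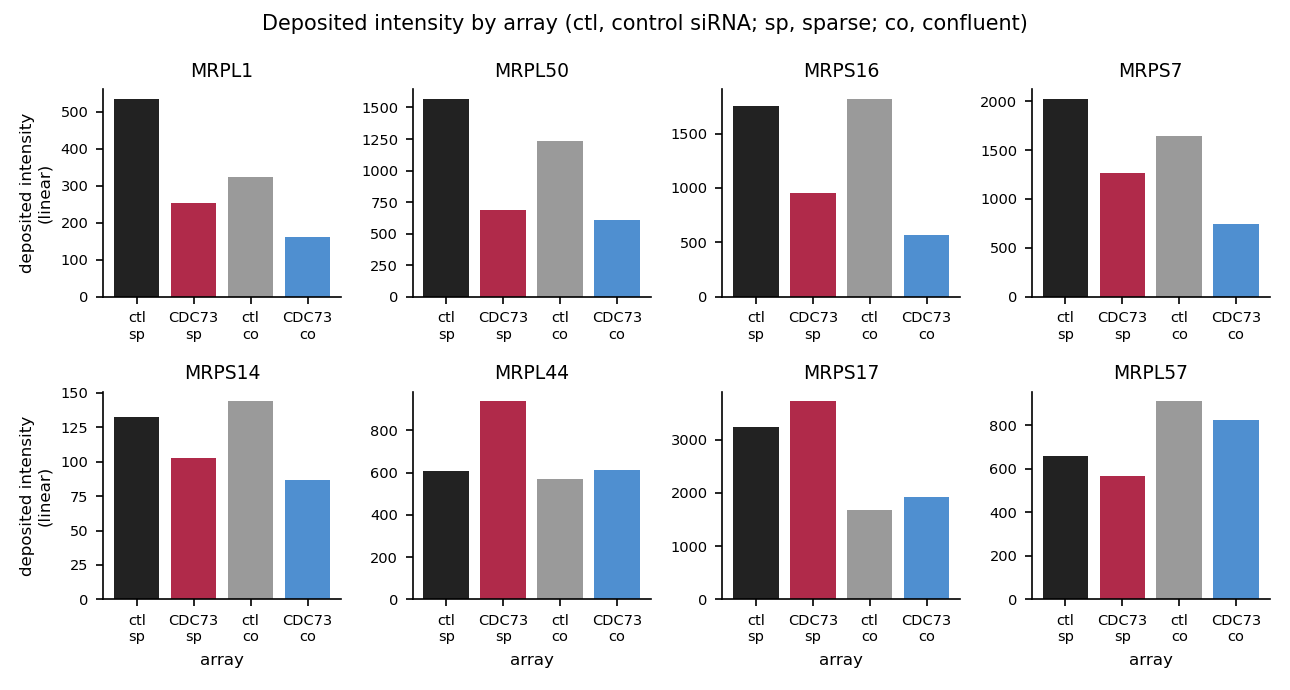
Bars give the deposited intensity (linear scale from 0) of 8 members on each of the 4 arrays, 1 array per group and so without error bars. MRPL1, MRPL50, MRPS16, MRPS7 and MRPS14 (not detected with CDC73 siRNA) had lower intensities with CDC73 siRNA at both densities, MRPL44 was higher, MRPS17 was lower at confluence, and MRPL57 was higher at confluence.

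In sparse cells, CDC73 siRNA went with slightly lower values over most of the family. Of 76 genes, 56 were lower and 20 higher (46.1% of all genes were lower and 53.9% higher), with a median log2 difference of -0.14 against 0.04 over 10182 genes. By at least 0.5, 11 were lower and 1 higher, where 10.3% and 12.9% of all genes were. Relative to all genes the median was -0.19, and it was -0.24 with median scaling and -0.20 in the deposited intensities.

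The low end in sparse cells was held by a few genes with much larger differences. Past 2-fold were 2 of 76, MRPL1 and MRPL50, both lower (1.82% of all genes were at least 2-fold lower), and 0 were 2-fold higher (2.13%, and 3.95% in either direction). MRPL1, the protein of the mobile stalk beside the site where transfer RNA leaves, had intensities of 535.1 (control sparse), 254.5 (CDC73 sparse), 324.8 (confluent, control) and 163 (confluent, CDC73). Each change of siRNA or of density was accompanied by a lower reading, and the CDC73 confluent array was the lowest. Its log2 difference with CDC73 siRNA was -1.29 in sparse cells against -0.77 in confluent ones, and between densities it was -1.20 with control siRNA and -0.68 with CDC73 siRNA. Over the processing alternatives the confluent siRNA value of MRPL1 ran from -1.18 to -0.36, the latter in the authors' log2 table.

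MRPL50, a large subunit protein specific to mitochondria, read 1568 (control sparse), 690.3 (CDC73 sparse), 1236 (confluent, control) and 605.2 (confluent, CDC73). Both CDC73 arrays were below both control arrays. The differences with CDC73 siRNA were -1.26 in sparse and -0.54 in confluent cells, and they ranged over the alternatives from -1.27 to -1.18 and from -0.96 to -0.50.

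MRPS16, which has a bacterial counterpart and is known as a gene of mitochondrial disease, read 1753 (control sparse), 957.9 (CDC73 sparse), 1818 (confluent, control) and 570.4 (confluent, CDC73). The control arrays were close to each other and both CDC73 arrays were well below them. Its differences were -0.93 in sparse and -1.23 in confluent cells, where they ran from -1.63 to -1.16 over the alternatives. MRPS7, a protein of the small subunit head, read 2022, 1265, 1641 and 742.5 in the same order of arrays. MRPS7 was at -0.71 in sparse and -0.64 in confluent cells, and at -1.06 in confluent cells with median scaling.

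MRPS14, another protein of the head, was near the detection limit, with intensities of 132.5 (control sparse), 102.4 (CDC73 sparse), 143.7 (confluent, control) and 86.36 (confluent, CDC73). It was not detected on either CDC73 array, so its log2 differences of -0.73 and -1.04 were taken against signal at background and have no firm size. In the authors' log2 table they were -0.43 and -0.47. Counted as they stand, MRPL1, MRPL50, MRPS7, MRPS14 and MRPS16 were the 5 members lower by at least 0.5 with CDC73 siRNA at both densities, and 4 of them, without MRPS14, were detected on all 4 arrays. Over all genes measured in both comparisons 4.47% met the same rule, a share close to that of the members. Each of the 5 has 1 named probe, so no other probe bears on them.

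MRPL44 was the 1 member higher by at least 0.5 with CDC73 siRNA at both densities, where 4.11% of all genes were. It codes for a large subunit protein with a fold like that of the RNA-cutting enzyme RNase III, and variants in it are known from cardiomyopathy. Its intensities were 606.8 (control sparse), 937.4 (CDC73 sparse), 568.2 (confluent, control) and 615.2 (confluent, CDC73). The differences of MRPL44 were 0.63 and 0.78, and 0.68 and 0.28 with median scaling. Averaged with a dimmer probe that was detected on no array, they were 0.36 and 0.53.

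Other members at the ends of the sparse comparison had smaller differences. MRPL47 was at -0.78, with -0.55 in its dimmer probe, and MRPL34, a small large-subunit protein with a bacterial counterpart, at -0.60. Above zero after MRPL44 came MRPL19 (0.28), MRPL28 (0.27), MRPS2 (0.26), MRPS17 (0.26) and MRPS34 (0.26), of which MRPL19, MRPL28 and MRPS2 have bacterial counterparts and MRPS34 does not.

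**Figure D3:**
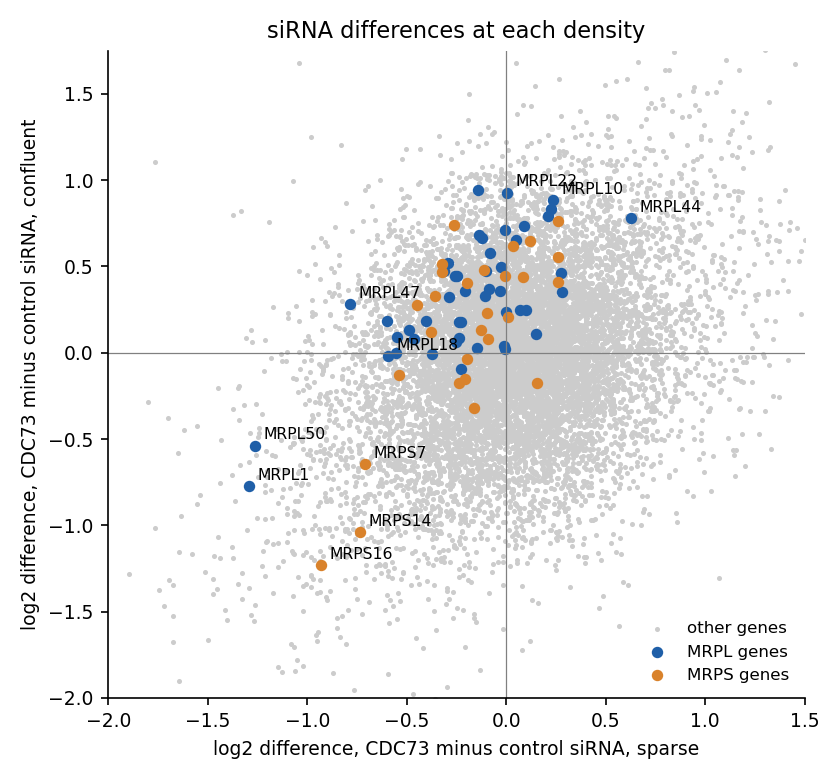
Each point is a gene, placed by its log2 difference between CDC73 and control siRNA. The x axis is for sparse cells and the y axis for confluent cells. MRPL genes are in blue, MRPS genes in orange and 10630 other genes in grey. The grey points include genes of the comparison families, and 57 more other genes lie outside the window. Most members lie left of 0 and above 0, and MRPL1, MRPL50, MRPS7, MRPS14 and MRPS16 lie low on both axes, MRPS14 from signal at background. The placing above 0 on the y axis does not hold with median scaling, where 47 of 76 members are below 0 in confluent cells.

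In confluent cells the same siRNA comparison read the other way in the quantile normalized values, and the absolute direction was not settled. Of 76 genes, 61 were higher and 15 lower (49.7% of all genes were higher and 50.2% lower), with a median of 0.30 against -0.00 over 10497 genes. With median scaling 29 were higher and 47 lower, with a median of -0.11 against -0.40 over all genes, and in the deposited intensities the median was -0.25 against -0.45. What held in all of these was the position relative to all genes, at 0.30, 0.28 and 0.19. That position did not set the family apart with median scaling. The cytosolic ribosomal protein and respiratory chain genes, described further below, had higher medians than the family in that setting. After quantile normalization their medians were lower than that of the family. By at least 0.5, 19 were higher and 5 lower in the quantile normalized values (14.9% and 16.9% of all genes), and 2 were higher and 9 lower with median scaling. Past 2-fold lower was MRPS16 among the members detected on both arrays, and the undetected MRPS14 made the count 2 (3.51% of all genes), while 0 members were 2-fold higher (2.29%, and 5.79% in either direction).

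The 6 highest members in confluent cells were MRPL genes, as are 48 of the 76, and MRPS17 came next at 0.77. MRPL30 was at 0.94, although its dimmer probe was at 0.07. MRPL22, which lines the peptide tunnel, had intensities of 6022 (control sparse), 5803 (CDC73 sparse), 4178 (confluent, control) and 5888 (confluent, CDC73), so that the control confluent array stood below the other 3. Its difference was 0.93 in confluent and 0.00 in sparse cells, with 0.75 and -0.24 in its dimmer probe.

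MRPL10, which anchors the stalk that holds MRPL12, read 490.1 (control sparse), 579.1 (CDC73 sparse), 553.5 (confluent, control) and 635.9 (confluent, CDC73). Both CDC73 arrays of MRPL10 were above the control array of the same density, and its differences were 0.23 and 0.88. MRPL14, which lies on the face turned to the small subunit, read 4607, 5176, 3311 and 4384 in the same order. MRPL14 was at 0.83 in confluent cells and MRPL17 at 0.79, with MRPL44 next at 0.78. With median scaling these 6 were lower in size, at 0.28 to 0.65, and still above zero.

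At the low end, after MRPS16, MRPL1, MRPS7 and MRPL50, came MRPS30 at -0.32 and MRPS27 at -0.18. MRPS30, which despite its symbol sits in the large subunit, had intensities of 2623 (control sparse), 2344 (CDC73 sparse), 2276 (confluent, control) and 1295 (confluent, CDC73). MRPS27 read 1424, 1610, 1800 and 1113, and its dimmer probe gave 0.45 in sparse and -0.51 in confluent cells, against 0.15 and -0.18 in the brighter one. MRPL43 was the member whose probes disagreed in sign past 0.3 in confluent cells, at 0.09, 0.33 and -0.31. The probes of MRPL11 agreed in sign but were further apart in size. Its brightest probe was at 0.37 in confluent cells, and its dimmer probes were at 1.46 and 0.46.

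**Figure D4:**
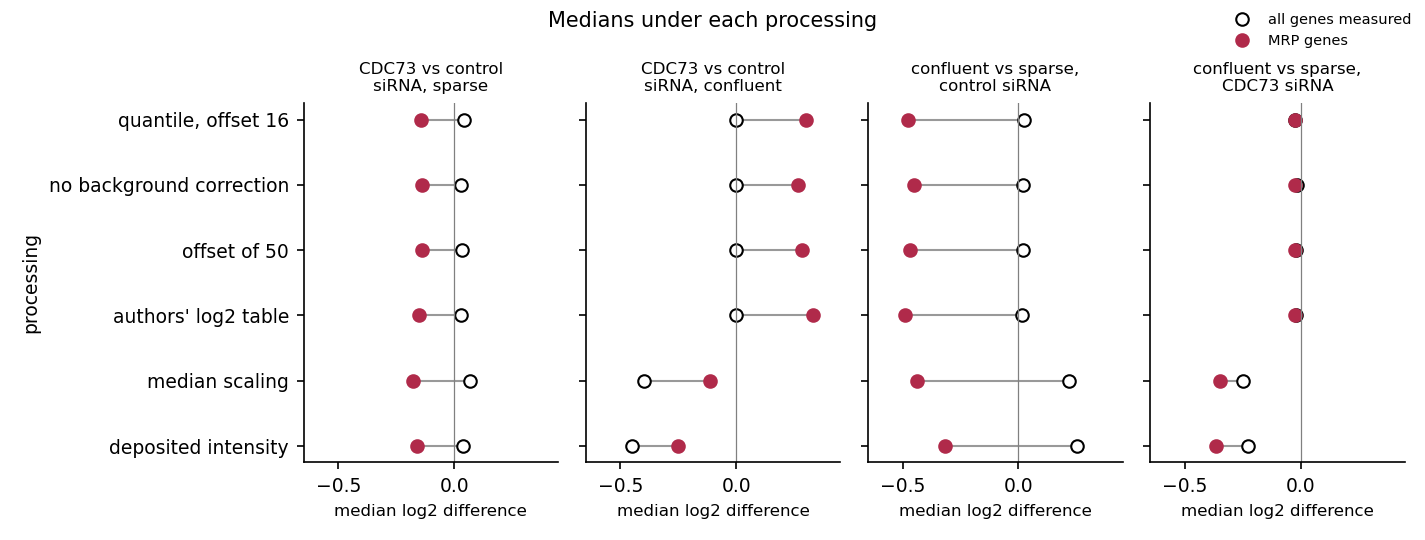
The 4 panels give, for each comparison, the median log2 difference of the family (red) and of all genes measured (open circles) under 6 ways of processing the same arrays. The family lay below all genes in sparse cells for the siRNA comparison and in the density comparison with control siRNA under each of them. In confluent cells the siRNA median of the family was at 0.30 after quantile normalization and at -0.11 with median scaling, with the family above all genes in each.

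Because each member has a value on 4 arrays, the difference of the siRNA effects (confluent minus sparse) is the same number as the difference of the density effects (CDC73 minus control siRNA), and it cannot be assigned to either. It was above zero for 71 of 76 genes (46.2% of all genes), with a median of 0.51 against -0.05 over 10763 genes. With median scaling it was above zero for 49 genes, with a median of 0.10 against -0.47, so the distance from all genes was 0.57 in both settings. In all, 39 genes were at 0.5 or above (16.5% of all genes) and 3 were past 2-fold higher (2.95%), while 0 were 2-fold lower (4.65%). The probe disagreement of this quantity was larger than for a single comparison, with an SD of 0.31 over 23 members.

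The 6 members with the highest difference of effects were MRPL30 (1.09), MRPL47 (1.07), MRPS33 (1.00), MRPL22 (0.92), MRPS18C (0.84) and MRPL35 (0.82). Dimmer probes gave 1.10 for MRPL47, 1.04 for MRPS33 and 0.99 for MRPL22, but -0.24 for MRPL30, and 0.09 and 0.06 for MRPL35. Among members detected on all 4 arrays the lowest were MRPS27 (-0.33), MRPS16 (-0.30), MRPS30 (-0.16), MRPL16 (-0.04), MRPL41 (0.03) and MRPL45 (0.05). After quantile normalization 51 members had their lowest value on the control confluent array and 45 their highest on the control sparse array. In the deposited intensities the lowest array was CDC73 confluent for 55 members and control confluent for 14, and the highest was control sparse for 50. The control confluent array also had the highest total signal and the CDC73 confluent array the lowest, and the part of this in the result was not tested.

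Large and small subunit genes were set side by side in every comparison, with no test. The MRPL and MRPS medians were -0.14 and -0.18 for siRNA in sparse cells, 0.33 and 0.25 for siRNA in confluent cells, -0.55 and -0.41 for density with control siRNA, and -0.03 and -0.04 for density with CDC73 siRNA. The widest gap was -0.13 (density with control siRNA), and over the alternatives it ran from -0.15 to -0.08. The symbols do not fully follow the structure, since the proteins of MRPS30 and MRPS18A are part of the large subunit. With these 2 moved, 50 genes against 26, the gap for density with control siRNA was also -0.13.

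The 3 MRPS18 genes descend from 1 bacterial gene and their proteins sit at different places in the ribosome. MRPS18A read 942.8 (control sparse), 840.9 (CDC73 sparse), 678.2 (confluent, control) and 590.9 (confluent, CDC73). MRPS18B read 2257, 1817, 1900 and 1805, and MRPS18C read 5949, 4634, 3546 and 3758. For each of them the control sparse array was the highest in deposited intensity. The density difference with control siRNA was -0.80 for MRPS18A, -0.44 for MRPS18B and -0.81 for MRPS18C, and the siRNA difference in sparse cells was -0.20, -0.32 and -0.32.

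Members were also grouped by origin. The classes were set after the values were known, from general knowledge of the ribosome. The 45 genes whose proteins have a bacterial counterpart had a median density difference with control siRNA of -0.54, and the 29 mitochondria-specific ones had -0.41. For siRNA in confluent cells the medians were 0.25 and 0.33, and in sparse cells -0.14 and -0.15. The other 2 genes were not classed.

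Promoters of the members are shown because many members shifted together between arrays and nuclear genes for mitochondrial proteins are known targets of the factors YY1, NRF1 and GABP, the last of the ETS family. The sequences are from RefSeq (GRCh38.p14), 250 bases before to 50 after each gene's start, and matched 68 of the 76 members. The YY1-type letters AAGATGGC, searched on both strands, were in 20 of 68 windows (29.4%), against 3.01% of 27303 promoters of all genes and 3.86% of 15842 promoters of coding genes. In 15 of the 20 members the match lay on the gene's strand 7 to 36 bases after the start, and the letters contain ATG, as a start codon does. The 24 bases around the match are printed for 8 members, among them MRPL50 and MRPS7 from the siRNA comparisons and MRPL20 and MRPS18A from the density comparison, with the match in capitals. These 8 and the stretches further down were picked after the values were seen.
MRPL50 (chr9:101398580-101398603, minus strand): tctcatcgAAGATGGCggcgcgat
MRPS7 (chr17:75261890-75261913, plus strand): ggccagccAAGATGGCtgcccccg
MRPL20 (chr1:1407263-1407286, minus strand): acccgggcAAGATGGCagcggcgc
MRPS18A (chr6:43687767-43687790, minus strand): ggtttttgAAGATGGCggccctca
MRPS30 (chr5:44808952-44808975, plus strand): cgcgggcaAAGATGGCggcggcca
MRPS27 (chr5:72320209-72320232, minus strand): tacgctccAAGATGGCtgcctcca
MRPL22 (chr5:154941099-154941122, plus strand): ggagggcgaAAGATGGCggcggca
MRPL46 (chr15:88467365-88467388, minus strand): gagaacgaAAGATGGCggcgcccg

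The ETS-type letters CCGGAAG were in 28 of 68 windows (41.2%), against 10.6% of all promoters and 14.2% of those of coding genes. The NRF1-type motif, GCGCA and GCGC with any base between them, was in 8 (11.8%, against 6.29% and 8.58%) and the E-box CACGTG, which MYC can bind, in 7 (10.3%, against 7.4% and 8.82%). The end of CCGGAAG can serve as the beginning of AAGATGGC, but matches of different motifs overlapped in 0 members. The 120 bases before the start are printed for 3 members with ETS-type matches that were low at confluence with control siRNA, MRPL20, MRPS18A and MRPL47. They are also printed for MRPL1 and MRPS16, whose 120 bases hold none of the 4 motifs. With CDC73 siRNA, MRPL1 was past 2-fold lower in sparse cells only and MRPS16 in confluent cells only. MRPL1 was also past 2-fold lower at confluence with control siRNA. MRPL50, past 2-fold lower with CDC73 siRNA in sparse cells, has a YY1-type match. MRPS16 has an ETS-type match on the opposite strand from base 6 after its start, and the window of MRPL1 holds no match. Capitals mark ETS-type letters and, in MRPL47, also the YY1-type letters read from the opposite strand as GCCATCTT.
MRPL20 (chr1:1407294-1407413, minus strand): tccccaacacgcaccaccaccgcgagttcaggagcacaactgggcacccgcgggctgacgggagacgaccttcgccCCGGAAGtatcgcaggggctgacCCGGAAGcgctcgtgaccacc
MRPS18A (chr6:43687792-43687911, minus strand): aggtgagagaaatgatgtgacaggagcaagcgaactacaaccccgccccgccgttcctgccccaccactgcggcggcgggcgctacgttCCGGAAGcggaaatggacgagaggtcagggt
MRPL47 (chr3:179604647-179604766, minus strand): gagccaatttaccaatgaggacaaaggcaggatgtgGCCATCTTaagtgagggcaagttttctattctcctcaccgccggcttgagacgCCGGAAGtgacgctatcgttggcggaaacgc
MRPL1 (chr4:77862710-77862829, plus strand): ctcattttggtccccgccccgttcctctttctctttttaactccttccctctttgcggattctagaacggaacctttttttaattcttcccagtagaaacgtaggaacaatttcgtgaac
MRPS16 (chr10:73252645-73252764, minus strand): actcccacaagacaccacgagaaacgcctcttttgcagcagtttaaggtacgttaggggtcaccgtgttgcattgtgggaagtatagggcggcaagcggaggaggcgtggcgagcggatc

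Members with and without a motif were set side by side, with no test. For density with control siRNA the median was -0.55 over the 20 members with the YY1-type letters and -0.45 over the 48 without, and -0.40 over the 28 with ETS-type letters and -0.49 over the 40 without. For siRNA in confluent cells the medians were 0.23 and 0.30 (YY1-type) and 0.30 and 0.24 (ETS-type). The 8 members with the NRF1-type letters were at 0.59 in that comparison, against 0.26 over the other 60. For density with control siRNA these 8 were at -0.48 against -0.47, and for siRNA in sparse cells at -0.12 against -0.18. Under median scaling the siRNA differences in confluent cells were above zero for MRPL14, MRPL17, MRPL30 and MRPS33. They were below zero for MRPL36, MRPL45, MRPL57 and MRPS9.

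Levels of these factors differed between arrays in different directions, and YY1 and NRF1 were added to the named genes after their values were seen, for their motifs. YY1 was at 0.07 (siRNA, sparse), 0.52 (siRNA, confluent), -0.34 (density, control siRNA) and 0.11 (density, CDC73 siRNA), and GABPB1, a subunit of GABP, at 0.10, 0.78, -0.59 and 0.09. The DNA-binding subunit GABPA was at -0.27, -0.71, 0.20 and -0.24. MYC was at 0.18, -1.04, -0.14 and -1.36, and ESRRA, a nuclear receptor that acts on mitochondrial genes, at -1.13, -0.51, -0.24 and 0.39. NRF1 was detected on no array. In the deposited intensities of confluent cells YY1 read 2005 (control siRNA) and 1955 (CDC73 siRNA), so its direction there depended on the scaling. GABPB1 read 312.1 and 335.8 on the same arrays.

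**Figure D5:**
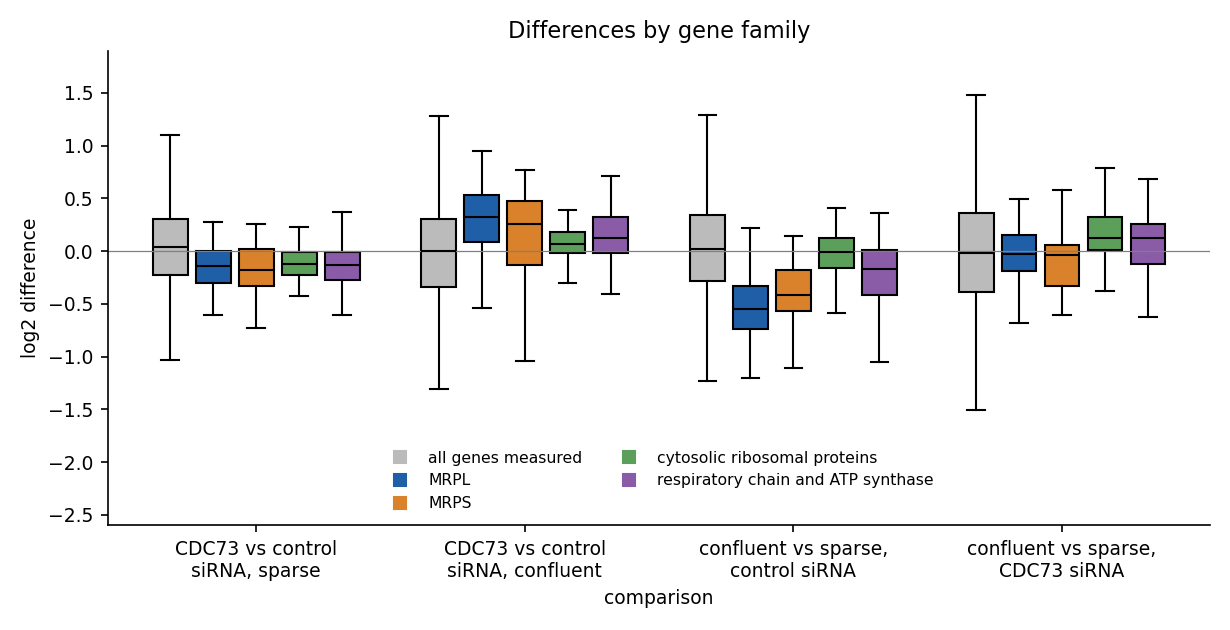
Boxes give the log2 differences of all measured genes (grey), MRPL genes (blue), MRPS genes (orange), cytosolic ribosomal protein genes (green) and genes of the respiratory chain and ATP synthase (purple) in the 4 comparisons, with the median, the middle 50% and whiskers to the last value within 1.5 times the box. The MRPL box lies lowest for density with control siRNA, with a median of -0.55. The place of the MRPL and MRPS boxes above the other families for siRNA in confluent cells does not hold with median scaling.

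The family was set beside 77 named genes of cytosolic ribosomal proteins and 78 of the respiratory chain and ATP synthase. For density with control siRNA the family median was -0.48, that of the cytosolic ribosomal proteins -0.01 and that of the respiratory chain genes -0.17, and with median scaling the 3 were at -0.44, -0.06 and -0.18. For siRNA in sparse cells they were nearly equal, at -0.14, -0.13 and -0.13. For siRNA in confluent cells the family was highest after quantile normalization, at 0.30 against 0.07 and 0.12, and with median scaling it was lowest, at -0.11 against 0.07 and -0.08. After quantile normalization the siRNA medians of all 3 were thus below zero in sparse cells and above zero in confluent cells. For density with CDC73 siRNA the medians were -0.03, 0.12 and 0.12. The difference between families has no test in this layout.

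Other genes of mitochondrial gene expression were counted from lists, with values after quantile normalization only. For siRNA in confluent cells the sign of the family median depended on the scaling. Higher values of the lists in that comparison are therefore not settled in direction. Of 4 mitoribosomal proteins with other symbols, 3 were measured, and all were lower at confluence with control siRNA. They were GADD45GIP1, a large subunit protein detected on 3 arrays (-1.61), CHCHD1 (-0.75) and DAP3, a GTP-binding protein of the small subunit (-0.21). With CDC73 siRNA in confluent cells GADD45GIP1 was at 1.77, CHCHD1 at 0.70 and DAP3 at 0.35, and in sparse cells they were at 0.40, -0.12 and 0.21. The array on which GADD45GIP1 was not detected was control confluent (intensity 97.58). Its values of -1.61 and 1.77 were taken against signal at background and have no firm size.

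Of 20 measured genes for ribosome assembly and rRNA modification, 15 were lower at confluence with control siRNA (48% of all genes), 1 of them past 2-fold (1.64% of all genes were 2-fold lower and 5.54% either), with a median of -0.27. The gene past 2-fold was MTG1, a GTPase of large subunit assembly, at -1.10. MPV17L2, which takes part in ribosome assembly, was lower with either siRNA, at -0.90 and -1.02. For siRNA the assembly list had medians of 0.09 in sparse and 0.20 in confluent cells after quantile normalization. RBFA, an assembly factor of the small subunit, was at 0.65 and 0.83.

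Of 19 measured genes for translation factors and mRNA handling, 15 were lower at confluence with control siRNA (48% of all genes) and 15 with CDC73 siRNA (51.8%), with medians of -0.25 in each. GUF1, a GTPase of the translating ribosome, was at -0.95 and -0.51, TRMU, which modifies mitochondrial transfer RNA, at -0.94 and -0.60, and TSFM, the exchange factor of the elongation factor Tu, at -0.78 and -0.20. In the siRNA comparison of confluent cells LRPPRC, which stabilises mitochondrial mRNAs, was at -0.82 and GTPBP3, another transfer RNA modifier, at -0.97. Their density differences were -0.12 and 0.30 with control siRNA and -0.76 and -0.24 with CDC73 siRNA.

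The list for transcription of mitochondrial DNA had medians of -0.42 and -0.58 for density with control and CDC73 siRNA. The list was short. Its measured genes were POLRMT, TFAM, TFB2M, MTERF1, PNPT1 and SUPV3L1, and with CDC73 siRNA also MTERF2. PNPT1, the brightest, was higher at confluence with either siRNA (0.39 and 0.18). MTERF2, detected on 1 array, was at 0.77 with CDC73 siRNA, and the other measured genes were lower in both comparisons. TFAM, which packages and helps transcribe mitochondrial DNA, had siRNA differences of -0.68 in sparse and -0.82 in confluent cells. Its density differences were -0.45 and -0.58. The RNA polymerase gene POLRMT was at 0.16 and -0.42 for siRNA, and PNPT1 was at 0.40 and 0.19.

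Of 20 measured genes of the import machinery (TOMM and TIMM symbols), 17 were lower at confluence with control siRNA (48% of all genes were), 2 of them past 2-fold (1.64%), with a median of -0.62, and 13 with CDC73 siRNA (51.8%), with a median of -0.22. TOMM22, a receptor of the outer membrane, was at -1.25 and -0.42, and TIMM10, a chaperone of the space between the membranes, at -1.08 and -0.21. TOMM40, the channel of the outer membrane, was at -0.89 and -1.09. The import and ribosomal protein lists share these arrays, so their values are given side by side only.

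An additive fit of siRNA and density over all 4 arrays, by limma with 1 residual degree of freedom, gave counts of calls at a Benjamini-Hochberg adjusted p under 0.05. For siRNA it called 443 of 10763 genes (4.12%), among them 4 members, all lower with CDC73 siRNA, namely MRPL1, MRPL50, MRPS14 and MRPS16, and among genes detected on all 4 arrays it called 3 members, without MRPS14. At an unadjusted p under 0.05 it had 7 members for siRNA (14.2% of all genes) and 9 for density (20.7%). For density it called 871 genes (8.09%), among them 2 members, MRPL1 and MRPS17, both lower at confluence. Without a detection filter limma called 0 genes for either, with 1957 and 2772 at an unadjusted p under 0.05. The single residual degree of freedom is the difference of the siRNA effects itself, so the fit counts that quantity as error. The prior degrees of freedom that limma estimated were infinite in the main fit, so that all genes were judged against 1 shared variance. Without a detection filter they were 4.6.

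The error that could be measured was the disagreement between probes. Both probes of a gene were read on the same arrays, so it leaves out variation between cultures, transfections and arrays. Among the 23 members with a second probe detected on all 4 arrays, both probes had the same sign in 16 (siRNA, sparse), 19 (siRNA, confluent), 20 (density, control siRNA) and 15 (density, CDC73 siRNA). The SD between probes was 0.16, 0.23, 0.22 and 0.28 in that order, and over 1879 genes it was 0.25, 0.33, 0.28 and 0.32. The second probes alone gave medians of -0.10, 0.30, -0.38 and 0.06.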

How the data were processed

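Expression was measured on 4 arrays, 1 in each group, and all were used. The authors deposited a table of intensity for each probe, linear and not normalized per the file headers, and a log2 table of the same arrays, whose medians of 6.42 on each array show a normalization between arrays. The software and steps behind both tables, and a genome build, were not given in the sources used here. Of 49576 probes, 48803 had values. The deposited intensity table holds no detection p-value, so a panel of 452 olfactory receptor probes stood in as negative controls, and a detection p was the share of panel probes at least as bright. Background was corrected with the panel by the normexp method in limma 3.58.1 (R 4.3.3), with an offset of 16, then quantile normalization and log2. A gene took its named probe with the highest mean. Array differences have no replicates and are given by size, with a limit of 2-fold. Correlation of the authors' log2 table with log2 intensity was 0.998 to 1.000, which settles scale and direction.

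The members and lists were chosen with earlier results of these data known. Named members were the 6 at each end of each comparison detected on both arrays, those past 2-fold, the 6 at each end of the difference of siRNA effects, those at 0.5 or more in the same direction in both siRNA or both density comparisons, those whose probes disagreed in sign past 0.3, and the MRPS18 genes with MRPS30, plus, of each other list, up to 3 genes by size of difference in each comparison described. The lists were mitoribosomal proteins with other symbols, assembly, translation factors, mitochondrial DNA transcription, transcription factors, protein import, cytosolic ribosomal proteins, and the respiratory chain with ATP synthase. Each choice was varied in turn: background left uncorrected, an offset of 50, arrays scaled to 1 median, the authors' log2 table, detection at p under 0.05, not required, or on both or all 4 arrays, probes averaged, and members placed by structure. The number of arrays limits the precision.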

Additional observations from a re-analysis of the deposited data

Results flagged for a closer look

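The siRNA difference of the family lay on opposite sides of zero at the 2 densities, with medians 0.45 apart (confluent minus sparse, from -0.14 to 0.30), and with 1 array per group this difference was not tested. With median scaling both medians were below zero. Single members also had siRNA differences of opposite sign at the 2 densities, each past the SD between probes over all genes. Their siRNA effects, confluent minus sparse, differed by 0.79 for MRPL33, 0.82 for MRPL52, 0.70 for MRPL57, 0.79 for MRPS18B, 0.84 for MRPS18C, 0.69 for MRPS28 and 1.00 for MRPS33. The density effects of MRPL33, MRPS18B and MRPS33, CDC73 siRNA minus control siRNA, differed by 0.79, 0.79 and 1.00, which are the same numbers by construction. With median scaling MRPL57 and MRPS28 were below zero at both densities (-0.24 and -0.0014, -0.34 and -0.13, sparse then confluent), and MRPL52 and MRPS18B were at 0.04 and 0.07 in confluent cells. The dimmer MRPL57 probe was at 0.07 in sparse and -0.03 in confluent cells. None of these differences was tested, and the SD between probes leaves out variation between cultures, transfections and arrays.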

How the results depend on the processing

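No paired analysis was possible because each group has 1 array and the groups share only replicate number 1. With median scaling, the siRNA median of the family in confluent cells was -0.11 in place of 0.30, the density median with CDC73 siRNA -0.35 in place of -0.03, and the difference of the siRNA effects 0.10 in place of 0.51. Without background correction or normalization, a setting added after seeing the data, the first pair were -0.25 and -0.37. Which scaling of the arrays is right was not tested. Members past 2-fold for siRNA in confluent cells numbered 2, and 1 without background correction, with an offset of 50, in the authors' log2 table, and with detection on both or on all 4 arrays, but 4 with median scaling. For density with control siRNA 3 became 1 with median scaling. The additive fit called 2 members for density, and 6 without background correction, 5 with an offset of 50, 6 in the authors' log2 table, 4 with detection on all 4 arrays, and 0 with median scaling or without a detection filter. Its 4 members for siRNA became 1 with median scaling and 0 without a filter. Over all genes the fit called 138 (siRNA) and 223 (density) with median scaling in place of 443 and 871, and 0 and 0 without a filter, where 1957 and 2772 had an unadjusted p under 0.05. The causes were not tested. Detection on both arrays was not run for the fit, since it uses all 4. Of 152 values of the 38 named members, median scaling moved 68 by more than the probe SD, the mean of probes 18, the authors' values 7, no background correction 4 and an offset of 50 moved 2. Near the detection limit, at intensities of 103 to 123, as for MRPS14, differences have no firm size.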
